A study of Mus musculus with 2 samples.

Results

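The nuclear-encoded genes of the mitochondrial respiratory chain were followed in single cells of mouse tumors. They were chosen by gene symbol, as the Nduf, Sdh, Uqcr, Cox and Atp5 genes that name subunits of the chain, with the Ndufaf assembly factors left out. The rule found 81 of the 16416 genes measured: 37 named for complex I, 4 for complex II, 8 for complex III, 16 for complex IV and 16 for complex V. All 81 symbols were found in the GENCODE annotation of the mouse, none of them on the mitochondrial chromosome and 3 of them on the X chromosome. One member, listed as Atp5o.1, stands for a pair of overlapping gene models named Atp5o, so its reads may be split between them.

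The tumors had grown in mice whose heat shock factor 1 (HSF1) carries alanine in place of serine 303 and serine 307 (S303/7A) and in wild-type (WT) mice. Each genotype gave 1 droplet library of pooled tumors, so replicates are lacking and the comparison carries no p-value. The series' design text gives 4 mice for the pooling but does not say clearly whether that is for each genotype. The mutation belongs to the host mice, and the labels name neither the line of the engrafted tumor cells nor their genotype. Live cells were sorted by the leukocyte marker CD45, and the positive and negative fractions were mixed 5 to 1, so the balance of immune and other cells was set by the sort.

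The respiratory chain moves electrons from nutrients to oxygen and uses the energy to make ATP. Complex I takes electrons from NADH and complex II takes them from succinate in the citric acid cycle. Complex III passes them on to cytochrome c, complex IV gives them to oxygen, and complex V, the ATP synthase, makes ATP from the proton gradient that complexes I, III and IV build. Most subunits are encoded in the nucleus, and a small set in complexes I, III, IV and V is encoded by mitochondrial DNA, so the chain needs both genomes. T cells are known to raise mitochondrial respiration on activation and as memory cells.

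The S303/7A library held 4802 cells and 72802158 UMIs (unique molecular identifiers, each marking 1 captured RNA molecule), and the WT library held 6654 cells and 87075629 UMIs. Median depth per cell was 13028 UMIs in the S303/7A library and 7698 in the WT library. In the 8 classes compared below, median depth was 1.10 to 2.61 times as high in the S303/7A library, most in macrophages and least in stromal and tumor cells. The libraries shared 48 cell barcodes. The cells fell into 22 clusters and 11 classes in the authors' deposited annotation, which may rest in part on the members' own levels. The classes deposited as MF, Mo, DC and Treg are called macrophages, monocytes, dendritic cells and regulatory T cells. Defining markers were found where they belong: Ncr1 was 4.52 in S303/7A and 4.11 in WT NK cells, Cd8a 8.04 and 8.30 in CD8 T cells, Foxp3 2.79 and 3.05 in regulatory T cells, and C1qa 49.5 and 35.9 in macrophages. The class deposited as Stromal is cluster C15. Its Col1a1, a collagen gene, was 0.105 and 0.168 UMIs per 10000 in the S303/7A and WT libraries. The Tumor class had more, 0.932 and 0.957. Pdgfrb was also lower in C15, 0.0697 and 0.202, than in the Tumor class, 0.775 and 0.669. Rgs5 went the other way, 0.139 and 0.0588 against 0.00401 and 0.0207. The mast cell gene Cma1 was 0.00872 and 0.949 in C15. These markers do not settle what C15 is, and the cells called stromal below are this deposited class. Levels below are UMIs per 10000 UMIs of the cells named. They count 3′ ends of molecules, are not divided by gene length, and have exact 95% intervals that cover counting error only.

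Together the 81 members made up 2.46% of all UMIs in the S303/7A library and 2.26% in the WT library. By gene symbol alone, complexes I, IV and V gave 29.3%, 29.4% and 29.6% of the members' UMIs over both libraries. Complex III gave 9.68% and complex II 1.97%. That assignment counts Ndufa4 (2.65 over all cells) in complex I here and below, and where its protein sits was not checked. Within complex I, Ndufa13 had the highest level over all cells at 4.12, followed by Ndufb9 at 3.81 and Ndufa2 at 3.59, all of them accessory subunits outside the catalytic core. Complex II was led by Sdhb at 2.01, the iron-sulfur subunit that carries electrons from the flavin subunit Sdha (0.592 over all cells) to the membrane anchors Sdhc (0.880) and Sdhd (1.16). Complex III was led by the hinge protein gene Uqcrh at 6.71. In complex IV the level of Cox4i1, the ubiquitous form of subunit 4 and the highest of all members, was 13.1, ahead of Cox8a at 11.2 and Cox7a2l at 6.70. Complex V was led by Atp5g2 at 9.48, 1 of 3 genes for the c subunit of the proton-driven ring, ahead of Atp5l at 6.87 and Atp5h at 6.70. The last 500 bases of Atp5l, Atp5h, Ndufs3 and Uqcrb share over 50% of their 31-base words with other genes of the annotation, such as Gm10221 for Atp5l, so the levels of these 4 members are uncertain. Another 6 members were below 0.1: Atp5s, Cox6a2, Cox6b2, Cox7a1, Cox7b2 and Ndufa4l2.

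Across cell populations, the chain was highest in the cluster deposited as Stromal and in the dividing clusters of CD8 T cells and macrophages. Of the 22 clusters, 20 had at least 20 cells in each library and were ranked. The summed level of the members was 287.5 in S303/7A and 264.7 in WT cells of the Stromal cluster C15, 280.8 and 263.3 in CD8 T cell cluster C11, and 279.9 and 264.9 in macrophage cluster C13. C11 and C13 were the clusters of their classes with most Mki67, a marker of dividing cells (1.68 and 1.97 in C11, 1.75 and 1.56 in C13). The other CD8 T cell cluster, C06, had a summed level of 242.3 in S303/7A and 237.7 in WT cells, with Mki67 at 0.141 and 0.148. Among tumor clusters the summed level was likewise highest in C04, 247.6 in S303/7A and 231.3 in WT cells, which had more Mki67 (0.698 and 0.626) than the other tumor clusters. The order had its exceptions. Macrophage cluster C09, with less Mki67 (0.371 and 0.373) than C05 (0.631 and 0.773), had a summed level of 268.5 in S303/7A and 262.2 in WT cells, against 264.2 and 254.2 in C05. C09 was shallow, with median depths of 2545 and 1386 UMIs per cell, against 19016 and 9049 in C05. Its median mitochondrial percent, 5.26 and 4.93, was the highest of the ranked clusters. Regulatory T cells, cluster C12, had Mki67 at 1.18 and 0.931 and a summed level of only 228.7 and 208.3.

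At the low end, tumor cluster C14 had a summed level of 192.4 in S303/7A and 188.7 in WT cells, and dendritic cell cluster C17 had 199.5 and 195.7. C14 was the tumor cluster with most Ddit3 (3.35 and 4.27) and Trib3 (0.938 and 1.59), genes of the integrated stress response. NK cells, cluster C10, were near the bottom, with 219.8 in the S303/7A library, and had 200.1 in the WT library. The highest cluster was 1.49 times the lowest in the S303/7A library and 1.40 times in the WT library. The order of the clusters was alike in the libraries (Pearson r = 0.952, Spearman rho = 0.962 over 20 clusters, which were drawn from both libraries together). Some neighbours in this order had overlapping counting intervals, such as C09 and C05 in the S303/7A library (264.4 to 272.6 and 263.2 to 265.2), and no spread over animals can be given. Of the 75 members at or above 0.1 over all cells, 36 were highest in the same cluster in both libraries. Most members varied little: the median member's highest cluster was 1.42 times its median cluster in the S303/7A library and 1.48 times in the WT library.

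**Figure D1:**
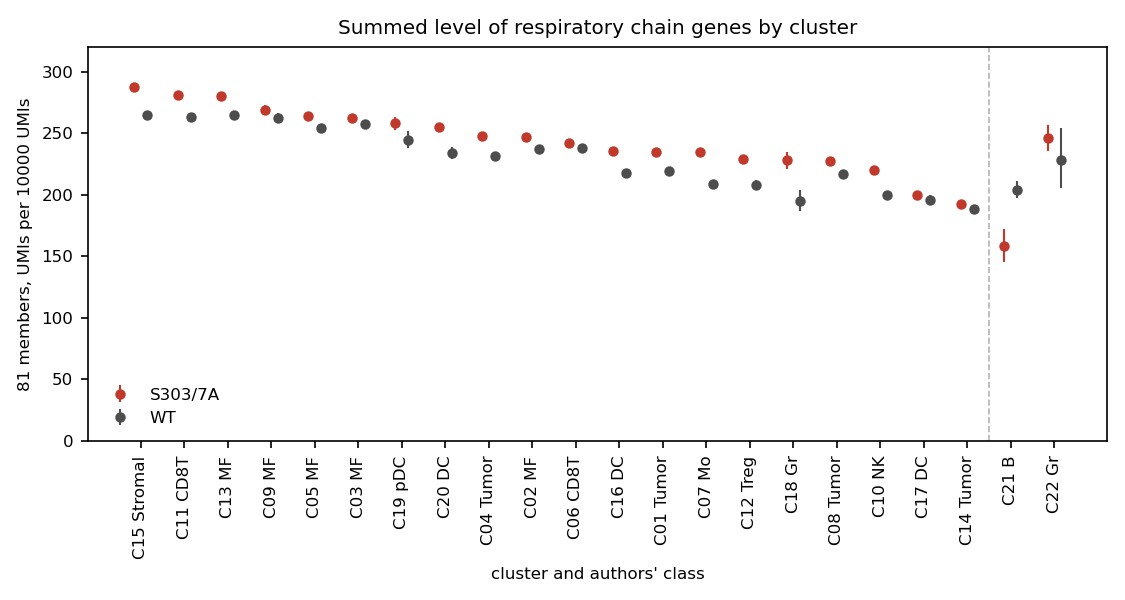
Summed level of the 81 members in each cluster (UMIs per 10000 UMIs, vertical axis) in the S303/7A (red) and WT (gray) libraries, with exact 95% counting intervals; 2 clusters right of the dashed line had fewer than 20 cells in a library. All 20 ranked clusters are higher in the S303/7A library, from C15 at 287.5 and 264.7 down to C14 at 192.4 and 188.7.

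The complexes did not vary equally. Complex II had the widest range over the 20 clusters, 2.98 to 6.63 in S303/7A and 3.20 to 6.23 in WT cells, with its low end in C14 and its high end in C13. Complex IV had the narrowest, 62.9 to 86.8 in the S303/7A library and 58.4 to 80.0 in the WT library. Complex V was highest in dividing CD8 T cells (C11), 89.3 in S303/7A and 85.0 in WT cells. Complex III was highest in macrophage cluster C09, 31.7 and 31.6, and lowest in NK cells, 20.7 and 18.5. Complexes I and V had the highest Pearson correlation over clusters (r = 0.890 in the S303/7A library and 0.887 in the WT library), and complexes II and III the lowest (r = 0.440 and 0.430). By rank, complexes III and IV were most alike in the WT library (rho = 0.920, against 0.875 for I and V). These correlations are descriptions over 20 clusters that share a library and a denominator.

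Transcripts of the mitochondrial genome, which encodes the core subunits that the nuclear members join, followed another order. Their summed level ran from 154.8 in C17 to 506.1 in C09 in the S303/7A library, a range of 3.27 times, and from 163.2 to 475.7 in the same clusters of the WT library. C09 is the macrophage cluster with the low depth given above. Across clusters the mitochondrial transcripts went only loosely with the nuclear members (r = 0.333 in the S303/7A library and 0.445 in the WT library). Monocytes had 1.34 nuclear UMIs for each mitochondrially encoded UMI in the S303/7A library and 1.13 in the WT library, while the Tumor class had 0.627 and 0.625. Cluster C14, lowest for the nuclear members, was not lowest here: its mitochondrially encoded level was 328.2 in S303/7A and 335.3 in WT cells, close to that of dividing tumor cells in C04, 327.9 and 318.5. The deposited cells stop at a mitochondrial share of 9.98%, so cells above it are not in this comparison.

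**Figure D2:**
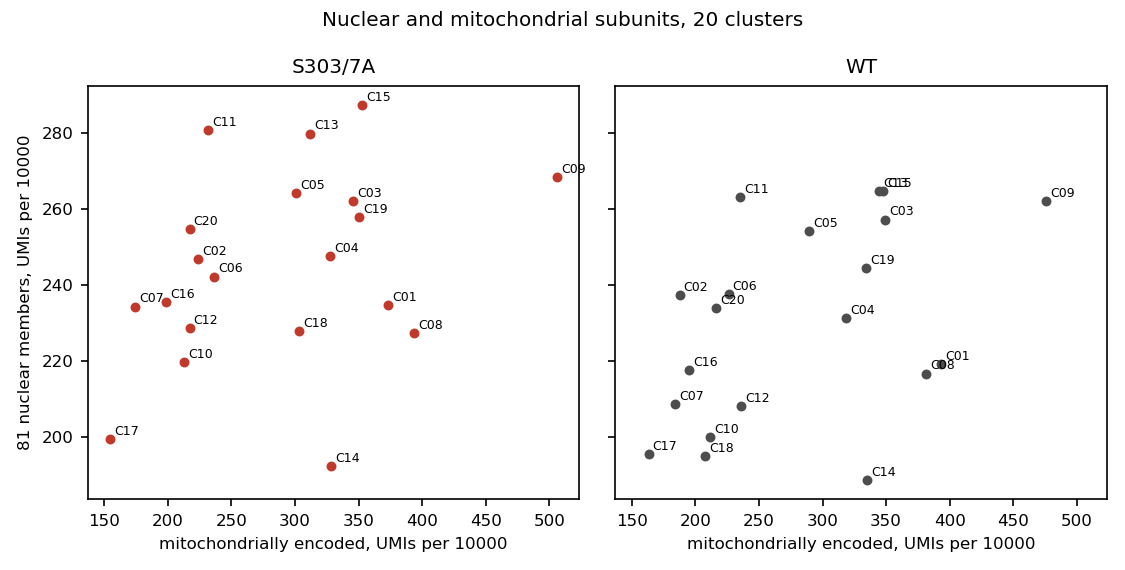
Summed level of the 81 nuclear members (vertical axis) against that of mitochondrially encoded genes (horizontal axis), both in UMIs per 10000 UMIs, for 20 clusters in the S303/7A library (left) and the WT library (right). Points scatter widely, with C09 far to the right (506.1 and 475.7) and C14 at the bottom (192.4 and 188.7); the vertical axis does not start at 0.

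Several complex IV genes have a common form and a tissue form, and one tissue form had its highest level by far in 1 small cell population. Cox6a2, the heart and muscle form of subunit 6A, was in the plasmacytoid dendritic cells of cluster C19, which also held Siglech, a marker of these cells, at 9.47 in S303/7A and 13.5 in WT cells. Its level in C19 was 5.08 (95% interval 4.39 to 5.85, 191 UMIs) in the S303/7A library and 6.99 (5.89 to 8.24, 142 UMIs) in the WT library. It was found in 27 of 32 S303/7A cells and 28 of 33 WT cells, 84.4% and 84.8% by the unthinned counts. With every cell thinned to 1000 UMIs these shares were 37.5% and 54.5%. Outside C19 its level was 0.0302 in S303/7A and 0.0291 in WT cells, and NK cells held it in 2.06% and 0.840% of cells, at median depths of 5864 and 3621 UMIs. Cluster C19 holds 0.666% of S303/7A and 0.496% of WT cells, yet 46.6% and 35.9% of the Cox6a2 UMIs of each library. Tumor cluster C14 held 21 of the S303/7A and 131 of the WT UMIs, found in 13.2% and 26.8% of its much deeper cells, at levels of 0.0464 and 0.163. Within C19, Cox6a2 took 52.2% of the subunit 6A UMIs in the S303/7A library and 59.7% in the WT library, and the common form Cox6a1 the rest. In the dendritic cells of cluster C16, Cox6a2 was found in 0 of 117 S303/7A and 0 of 107 WT cells, where a count of 3 UMIs would give levels of 0.0176 and 0.0349.

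Cox4i2, the form of subunit 4 that is known for its induction by low oxygen, was found mainly in macrophages, which held 1388 of its 1548 UMIs in the S303/7A library and 350 of 422 in the WT library. The highest WT level of a ranked cluster, 0.612 in C18, rests on 6 UMIs. In macrophage cluster C03 its level was 0.689 in S303/7A (493 UMIs) and 0.476 in WT cells (121 UMIs), found in 39.3% and 21.7% of cells at median depths of 13123 and 6554 UMIs. With every cell thinned to 1000 UMIs these shares were 7.16% and 4.01%. In macrophage cluster C13 it was 0.561 and 0.329, and in C09 it was 0.662 and 0.237. In NK cells it was 0.0332 and 0.0292, and in tumor cluster C01 0.00883 and 0.00633. Even in C03 it took only 4.42% of the subunit 4 UMIs in the S303/7A library and 2.94% in the WT library, with Cox4i1 giving the rest. Over all macrophages Cox4i2 was 0.472 in S303/7A and 0.295 in WT cells, a ratio of 1.60 (1.42 to 1.81). In monocytes it was 0.181 and 0.0823, a ratio of 2.20 (1.27 to 3.96). With cells thinned, 1.12% of S303/7A and 1.16% of WT monocytes held it, and 1.90% and 2.28% of cells in macrophage cluster C02. The thinned shares were 3.23% and 1.93% in C05, 6.15% and 2.26% in C09, and 2.91% and 2.52% in C13. The macrophage gene C1qa was 23.3 and 8.02 in monocytes, and a link to Cox4i2 was not tested.

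The other low members were rarer, and their highest levels are given over the 20 ranked clusters. In the unranked cluster C22 (25 and 9 cells), Cox6b2 was 1.04 in S303/7A cells on 9 UMIs, Cox7a1 0.346 on 3 UMIs, and Atp5s 0.663 in WT cells on 1 UMI. Ndufa4l2, a relative of Ndufa4 that is induced by low oxygen, had 64 UMIs in S303/7A and 68 in WT tumor cells, levels of 0.0233 and 0.0109. Cluster C08 held 30 and 11 of them, at levels of 0.0346 and 0.0105. Cluster C01 held 26 and 45, at 0.0287 and 0.0259, so there the libraries were close. The highest Ndufa4l2 level in a cluster, 0.113 in S303/7A stromal cells, came from 13 UMIs in only 2 of 138 cells. In the 163 WT stromal cells Ndufa4l2 had 0 UMIs. Cox6b2, a testis form of subunit 6B, was highest in dendritic cluster C16 of the S303/7A library at 0.217 (37 UMIs) and in monocytes of the WT library at 0.121 (28 UMIs). Cox7a1, the heart and muscle form of subunit 7A, peaked in macrophages, at 0.0646 in C09 of the S303/7A library (4 UMIs) and 0.0671 in C13 of the WT library (10 UMIs). Atp5s, a factor linked to the ATP synthase, was highest in cluster C18, deposited as class Gr, of the S303/7A library at 0.108, which rests on 2 UMIs, and in tumor cluster C01 of the WT library at 0.0696 (121 UMIs). Cox7b2 had 0 UMIs in the S303/7A library and 5 in the WT library.

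**Figure D3:**
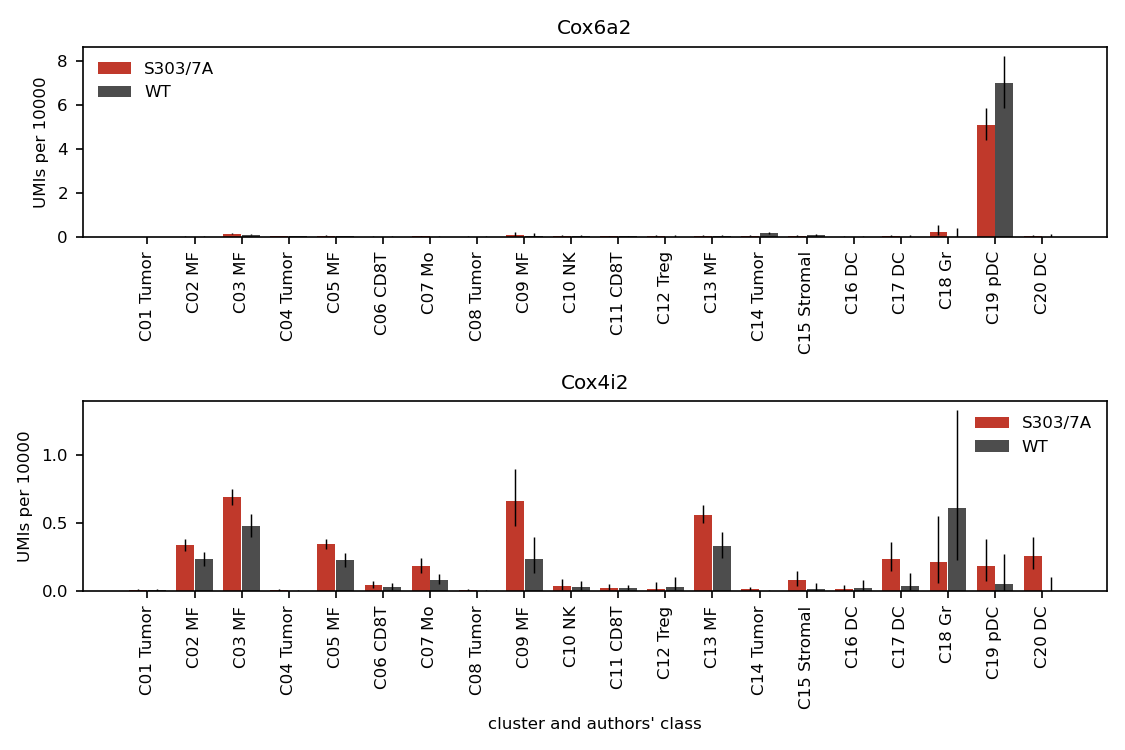
Level of Cox6a2 (top) and Cox4i2 (bottom) in 20 clusters (UMIs per 10000 UMIs) in the S303/7A (red) and WT (gray) libraries; lines are exact 95% counting intervals. Cox6a2 stands out in cluster C19 at 5.08 and 6.99, and Cox4i2 in macrophage clusters such as C03 at 0.689 and 0.476.

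The 3 genes for the c subunit of complex V, Atp5g1, Atp5g2 and Atp5g3, encode the same mature protein and were used in different proportions. Atp5g2 gave 65.4% of the c subunit UMIs in tumor cluster C01 of both libraries, against 43.1% in S303/7A and 42.8% in WT monocytes (C07). Atp5g1 gave 37.2% and 36.6% in monocytes, and 20.2% and 20.7% in regulatory T cells (C12). Atp5g3 was largest in macrophage cluster C09, at 28.4% of the S303/7A and 26.7% of the WT UMIs. Between these clusters the proportions differed more than between the libraries within a cluster. Among the subunit 7A group, Cox7a2l, which is known for joining complexes III and IV into supercomplexes, gave 64.0% of UMIs in S303/7A and 69.8% in WT NK cells, and 47.0% and 53.5% in dividing CD8 T cells. Part of the 3′ end of Atp5g2 is shared with the gene model Gm10175 (30.2% of 31-base words).

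Between the genotypes, the summed level of the chain was slightly higher in the S303/7A library in each of the 8 classes with at least 50 cells in each library. Monocytes had a summed level of 234.4 in S303/7A and 208.7 in WT cells, a ratio of 1.12 (1.11 to 1.14). NK cells had 219.8 and 200.1, a ratio of 1.10 (1.08 to 1.12). Regulatory T cells had 228.7 and 208.3, also 1.10 (1.08 to 1.12). Stromal cells had 287.5 and 264.7, a ratio of 1.09 (1.07 to 1.10). The ratio was 1.08 in dendritic cells, 1.05 in macrophages, 1.04 in tumor cells and 1.02 in CD8 T cells. At the level of clusters, all 20 ranked clusters were above 1, from 1.02 to 1.17. B cells, with 14 and 47 cells, went the other way, 158.5 in S303/7A and 204.2 in WT cells, a ratio of 0.776. With 1 library per genotype, a difference of this size between libraries cannot be told apart from a difference between genotypes.

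Other quantities also differed between the libraries, and not always in the same direction as the members. Ribosomal protein transcripts were higher in the S303/7A library in all 8 classes, from 1.03 times in tumor cells to 1.27 times in monocytes, while mitochondrially encoded transcripts had ratios of 0.921 in regulatory T cells to 1.05 in macrophages. The summed level of 8 macrophage markers was 14.7 in S303/7A and 5.40 in WT NK cells (6 of 8 markers higher), 15.6 and 5.92 in CD8 T cells (8 of 8), and 13.7 and 8.71 in regulatory T cells (7 of 8). It was 201.2 and 198.9 in monocytes (7 of 8), where C1qa was 23.3 and 8.02 and Apoe 33.4 and 13.6, 45.9 and 22.2 in dendritic cells, 4.33 and 2.10 in tumor cells, and lower in S303/7A stromal cells, at 5.62, than in WT stromal cells, at 12.3. UMIs of C1qa, C1qb or C1qc, macrophage genes that lymphocytes should lack, were in 85.1% of S303/7A and 51.8% of WT NK cells, 93.5% and 67.1% of CD8 T cells, and 75.9% and 40.4% of regulatory T cells. Without cells that held such a UMI, the ratio of the summed level was 1.09 in NK cells (29 and 172 cells left). It was 0.980 in CD8 T cells (40 and 228) and 0.946 in regulatory T cells (53 and 152), on the other side of 1 from all cells. The cells left were shallower. Their median depths were 6226 and 5369 UMIs in CD8 T cells, against 8325 and 6294 in all. In regulatory T cells they were 2428 and 1831, against 3702 and 2022. The mix of CD8 T cell clusters C06 and C11 among the cells left was not examined. With every cell thinned to 1000 UMIs the 8 ratios were 1.01 to 1.13, and with mitochondrially encoded and ribosomal protein genes out of the denominator they were 1.05 to 1.19.

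By single genes, the members stood above the background of all genes most clearly in NK cells, regulatory T cells and stromal cells. That holds for all cells at full depth, and not in each alternative given below for regulatory T and stromal cells. A gene counts here as higher at a ratio of at least 1.2 and as lower at the inverse of that or less, among genes with at least 50 UMIs in the class over both libraries, and with 1 library per genotype this is a size and not a test. In NK cells 26 of 74 members were higher and 0 lower, where 16.8% of all genes were higher and 24.7% lower, and the median ratio was 1.13 for members and 0.970 for all genes. In regulatory T cells 26 of 73 were higher and 3 lower, against 18.3% and 29.1% of all genes. Without the cells holding C1q UMIs, regulatory T cells had 9 of 62 members higher and 16 lower, beside 17.6% and 33.9% of all genes. CD8 T cells then had 12 of 73 higher and 19 lower, beside 23.8% and 37.2%. Members were thus past the limit less often than all genes in both directions there. In stromal cells 23 of 73 were higher and 2 lower, against 17.3% and 34.5% of all genes, and the medians were 1.10 and 0.952. With cells thinned to 1000 UMIs the stromal excess was gone, with 27.5% of members and 30.4% of all genes higher. In thinned NK cells these shares were 30.3% and 19.8%, and in thinned regulatory T cells 28.8% and 20.0%. In monocytes 32 of 75 were higher and 0 lower, beside 32.3% and 22.5% of all genes, and the median was 1.17 for members and 1.04 for all genes. Dendritic cells had 19 of 75 members higher and 0 lower (22.2% and 20.6% of all genes). In the remaining classes members were past the limit no more often than other genes. CD8 T cells had 12 of 75 higher and 3 lower (19.1% and 20.3% of all genes), macrophages 13 of 79 higher and 0 lower (24% and 14.8%), and tumor cells 9 of 77 higher and 1 lower (17.0% and 19.1%).

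The same direction was shared by many members across classes. Of the 73 members tested in all 8 classes, 26 had a ratio above 1 in 8 of 8, which is 35.6% of members beside 5.35% of the 2541 genes tested in all 8. One member, Ndufb9, was below 1 in 8 of 8, as were 5.35% of all genes. A set of 5 members had a ratio of at least 1.2 in 6 or more classes, 6.85% of members beside 2.48% of all genes. The classes share their 2 libraries, so they are not independent.

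**Figure D4:**
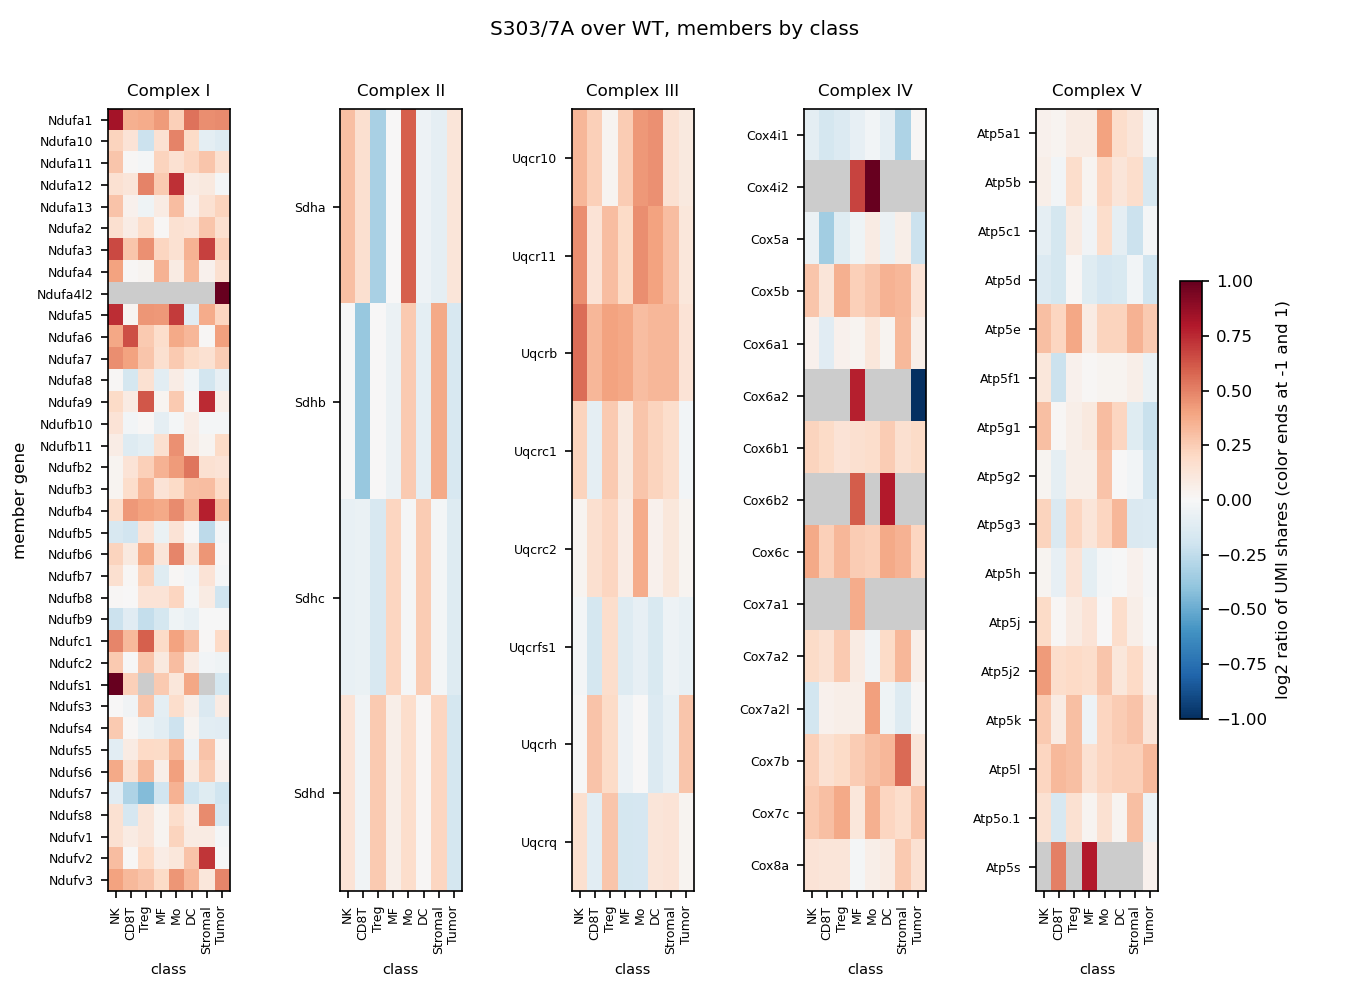
Log2 ratio of UMI shares, S303/7A over WT, for the members shown (rows, by complex) in 8 classes (columns); red is higher and blue lower in the S303/7A library, gray marks fewer than 50 UMIs. Rows such as Ndufa1, Ndufb4 and Uqcrb are red throughout, complex II is mixed, and Cox6a2 in tumor cells is the bluest cell (ratio 0.377).

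Those 5 members were Ndufa1, Ndufb4, Uqcrb, Ndufa6 and Ndufv3. Ndufa1, a small membrane-arm subunit of complex I, was 1.68 in S303/7A and 0.948 in WT NK cells, a ratio of 1.78 (1.42 to 2.23), and its lowest ratio was 1.18 in monocytes. Ndufb4, another membrane-arm subunit, was 1.88 and 1.10 in stromal cells, a ratio of 1.71 (1.37 to 2.14), and its lowest ratio was 1.13 in NK cells. Uqcrb, a complex III subunit known to bind ubiquinone, ran from 1.10 in tumor cells to 1.47 in NK cells, with the caveat of shared sequence given above. Ndufa6, an accessory subunit, ran from 1.01 in stromal cells to 1.56 in CD8 T cells, where its levels were 2.66 and 1.70. Ndufv3, an accessory subunit at the NADH-binding tip, ran from 1.08 in stromal cells to 1.40 in tumor cells, with levels of 1.69 in S303/7A and 1.21 in WT tumor cells.

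Nuclear respiratory factor 1 (NRF1), GABP and YY1 are known regulators of respiratory chain promoters, so the promoters of these members are shown, from 250 bases before to 30 bases after the RefSeq start (GRCm38.p6), beside Atp5g2, the highest member of complex V. RefSeq gave a promoter for 67 of the 81 members, Uqcrb not among them. They are all read 5′ to 3′ on the gene's strand: Ndufa1 at chrX:37191209-37191488 (minus), Ndufa6 at chr15:82354262-82354541 (minus), Ndufb4 at chr16:37654339-37654618 (minus), Ndufv3 at chr17:31519865-31520144 (plus) and Atp5g2 at chr15:102671018-102671297 (minus). Capitals mark matches, on either strand, to the NRF1 palindrome with the fifth base left free.
Ndufa1: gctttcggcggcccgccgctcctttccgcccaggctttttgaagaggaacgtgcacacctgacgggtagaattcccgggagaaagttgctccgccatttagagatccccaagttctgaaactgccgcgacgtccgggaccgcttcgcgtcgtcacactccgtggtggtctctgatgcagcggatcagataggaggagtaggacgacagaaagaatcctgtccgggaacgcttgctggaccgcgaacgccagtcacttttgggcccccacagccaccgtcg
Ndufa6: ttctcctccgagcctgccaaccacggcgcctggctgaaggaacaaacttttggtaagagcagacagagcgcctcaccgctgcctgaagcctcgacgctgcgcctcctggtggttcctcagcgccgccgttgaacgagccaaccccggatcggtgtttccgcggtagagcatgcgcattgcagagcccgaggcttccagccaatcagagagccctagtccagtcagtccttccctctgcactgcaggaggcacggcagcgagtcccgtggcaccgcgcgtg
Ndufb4: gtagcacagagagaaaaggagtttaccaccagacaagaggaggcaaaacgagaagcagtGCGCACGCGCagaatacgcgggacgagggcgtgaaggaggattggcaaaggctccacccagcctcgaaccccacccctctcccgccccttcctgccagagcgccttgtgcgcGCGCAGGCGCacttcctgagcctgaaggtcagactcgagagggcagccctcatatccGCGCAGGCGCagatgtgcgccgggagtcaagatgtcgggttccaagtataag
Ndufv3: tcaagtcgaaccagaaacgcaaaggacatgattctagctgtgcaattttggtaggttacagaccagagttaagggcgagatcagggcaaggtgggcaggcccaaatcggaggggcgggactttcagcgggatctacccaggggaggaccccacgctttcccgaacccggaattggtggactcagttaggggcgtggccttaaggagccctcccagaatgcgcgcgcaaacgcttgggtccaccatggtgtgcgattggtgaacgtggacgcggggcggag
Atp5g2: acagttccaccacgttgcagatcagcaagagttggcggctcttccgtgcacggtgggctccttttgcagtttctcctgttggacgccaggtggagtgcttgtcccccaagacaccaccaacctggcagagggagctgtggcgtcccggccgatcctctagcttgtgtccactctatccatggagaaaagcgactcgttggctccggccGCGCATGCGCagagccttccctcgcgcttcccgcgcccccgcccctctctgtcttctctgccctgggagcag
Ndufb4 holds 3 matches, Atp5g2 holds 1, and no match to this motif or those below was found in the windows of the other three. Over all members, 17 of 67 promoters (25.4%) held the NRF1 motif, beside 7.17% of 17492 promoters of protein-coding genes. The YY1 motif was in 6 members (8.96%, beside 2.26%), and the ETS and GABP letters CCGGAAGT were in 5 (7.46%, beside 5.69%). By complex, the NRF1 motif was in 7 of 32 promoters of complex I, 2 of 3 of complex II and 1 of 5 of complex III. It was in 6 of 15 of complex V, but in only 1 of 12 (8.33%) of complex IV, close to the 7.17% of all. Shares were counted over windows of 250 bases before to 50 bases after the start.

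Complex I held the largest single ratios in NK cells. Ndufs1, the large iron-sulfur subunit of the peripheral arm, had 34 UMIs in S303/7A and 17 in WT NK cells, levels of 0.282 and 0.124, a ratio of 2.27 (1.24 to 4.34). Ndufa5, another subunit of that arm, was 0.879 and 0.525, a ratio of 1.67 (1.23 to 2.29). Of the 36 complex I members tested in NK cells, 15 were higher and 0 lower, beside 16.8% and 24.7% of all genes. The share higher was 41.7% in complex I and 37.5% in complex III. It was 27.3% in complex IV, 26.7% in complex V and 25.0% in complex II. Ndufb9 was the lowest member in NK cells, 2.27 in S303/7A and 2.64 in WT cells, a ratio of 0.861 (0.733 to 1.01), followed by Cox7a2l at 0.880 and the complex I gene Ndufb5 at 0.894. In regulatory T cells Ndufs7, a core iron-sulfur subunit near the quinone site, was 1.47 in S303/7A and 1.99 in WT cells, a ratio of 0.740 (0.586 to 0.936), and was among the 3 lowest members of that class. Ndufa9 (1.54), Ndufc1 (1.51) and Ndufa12 (1.41) were the highest there. Ndufs7 was also among the 3 lowest in CD8 T cells (0.808), macrophages (0.874) and dendritic cells (0.871), yet 1.27 in monocytes. In monocytes Ndufa12 was 1.53 in S303/7A and 0.926 in WT cells, a ratio of 1.66 (1.40 to 1.96), and Ndufs4 was the lowest member at 0.867.

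Complex II, which is the only complex with no mitochondrially encoded subunit, had its lowest ratios in CD8 T cells and tumor cells. Its summed level was 4.62 in S303/7A and 5.30 in WT CD8 T cells, a ratio of 0.872 (0.826 to 0.921), and 3.78 and 4.10 in tumor cells, 0.922 (0.901 to 0.943). Relative to the other complexes together, its ratio was 0.852 (0.807 to 0.899) in CD8 T cells and 0.888 (0.868 to 0.909) in tumor cells. It was 0.903 in regulatory T cells, 0.924 in dendritic cells, 0.948 in NK cells and 0.974 in macrophages, against 1.05 in monocytes and in stromal cells. Within clusters the complex II ratio was 0.991 in C01, 0.988 in C08, 0.958 (0.916 to 1.00) in C04 and 0.933 (0.873 to 0.997) in C14 of the tumor cells, and 0.954 (0.887 to 1.03) in C11 and 0.846 (0.777 to 0.921) in C06 of the CD8 T cells. Of its genes in CD8 T cells, Sdhb was 2.29 in S303/7A and 2.98 in WT cells, a ratio of 0.768 (0.713 to 0.828), and lower in both clusters (1.90 and 2.74 in C06, 2.80 and 3.12 in C11), while Sdha was 1.12, Sdhc 0.955 and Sdhd 0.975. In tumor cells Sdhb was 0.894, Sdhc 0.916 and Sdhd 0.883, and Sdha was 1.09. Sdha, the flavin subunit, was 0.633 in S303/7A and 0.420 in WT monocytes, a ratio of 1.51 (1.17 to 1.96). In regulatory T cells it was 0.797, with an interval of 0.556 to 1.15.

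Complex III was above 1 in all 8 classes, from a ratio of 1.04 in macrophages to 1.17 in regulatory T cells. The small subunit gene Uqcr11 was 1.69 in S303/7A and 1.22 in WT NK cells, a ratio of 1.38 (1.12 to 1.70), and 1.38 in monocytes too. Uqcrq, another small subunit, was among the lowest members in macrophages (0.887) and monocytes (0.888). In dendritic cells Uqcrfs1, the iron-sulfur subunit, was at 0.900 (0.797 to 1.02).

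In complex IV the catalytic core is mitochondrially encoded and the nuclear members surround it. Cox4i1, the highest member, was below 1 in 7 of the 8 classes and 1.01 in tumor cells. Its levels were 12.7 in S303/7A and 15.7 in WT stromal cells, a ratio of 0.807 (0.753 to 0.865), and 12.9 and 14.6 in CD8 T cells, a ratio of 0.884. Cox5a was 7.07 and 8.98 in CD8 T cells, a ratio of 0.787 (0.754 to 0.822), and 3.68 and 4.27 in tumor cells, 0.863. Its partner Cox5b and the small subunit Cox6c were above 1 throughout, Cox5b from 1.09 in CD8 T cells to 1.28 in regulatory T cells, and Cox6c from 1.16 in tumor cells to 1.30 in NK and dendritic cells. In tumor cells the lowest ratio of all members was that of Cox6a2, with 33 UMIs in S303/7A and 199 in WT cells, levels of 0.0120 and 0.0319 and a ratio of 0.377 (0.253 to 0.547). Most of these UMIs were in cluster C14, as given above.

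Complex V was, besides complex II, the only complex with a summed ratio below 1 in any of the 8 classes. Its ratio was 0.976 (0.970 to 0.981) in tumor cells and 0.990 (0.977 to 1.00) in CD8 T cells, against 1.11 in monocytes and in regulatory T cells. Within clusters the direction was not shared. In tumor cells the ratio was 1.04 (1.03 to 1.05) in C01 and 1.02 (1.01 to 1.03) in C04, against 0.990 in C08 and 0.951 in C14, and in CD8 T cells it was 1.05 in C11 and 0.989 in C06. The libraries differ in their mix of clusters: C04 held 133 of 935 S303/7A and 780 of 2332 WT tumor cells. The c subunit gene Atp5g1 was 4.14 in S303/7A and 4.83 in WT tumor cells, a ratio of 0.857 (0.838 to 0.875). By cluster the levels lay closer together or the other way round in part, at 6.37 in S303/7A and 6.22 in WT cells of C04, 3.32 and 3.34 in C01, 3.99 and 4.42 in C08, and 3.49 and 3.98 in C14. In NK cells, a single cluster, Atp5g1 was 3.43 and 2.80, a ratio of 1.23 (1.06 to 1.41). Atp5d, the delta subunit of the catalytic head, was among the 3 lowest members in monocytes (0.890) and dendritic cells (0.899). Atp5e, the epsilon subunit, was above 1 in all 8 classes, from 1.06 in macrophages to 1.31 in regulatory T cells. Atp5l ran from 1.11 in macrophages to 1.25 in CD8 T and tumor cells, with the uncertainty of shared sequence given above.

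In the median over classes, short transcripts had higher ratios, among members and among all genes, but not among members in monocytes, where 33.3% of short and 48.9% of longer members had a ratio of at least 1.2. The 30 members with principal transcripts under 700 bases had a median ratio, over classes, of 1.13, and the 43 longer ones 1.06. For all genes tested in 8 classes the medians were 1.12 for 177 short and 0.986 for 2338 longer genes, and 1.06 for the 115 short genes that are neither members nor ribosomal protein genes. The ratio and the log10 transcript length had r = -0.315 and rho = -0.368 across the 73 members, and r = -0.167 and rho = -0.192 across all 2515 genes with a length, which are not independent replicates. The median length was 782 bases for members and 1906 for all genes. The part of transcript length in the members' ratios was not tested.

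**Figure D5:**
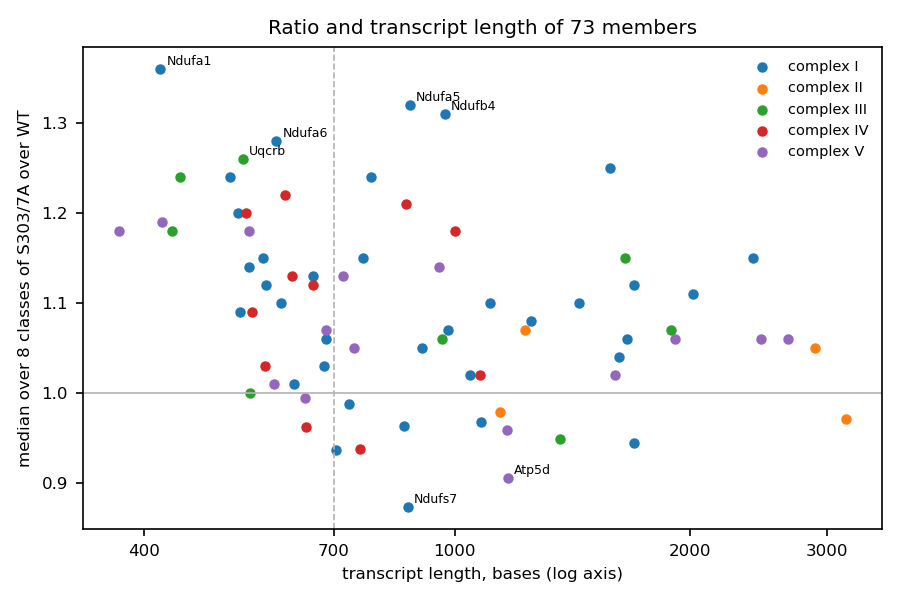
Median over 8 classes of the ratio S303/7A over WT (vertical axis, not starting at 0) against principal transcript length in bases (log axis) for 73 members, colored by complex; the dashed line is at 700 bases. Ratios are higher on the left (median 1.13 for 30 short members) than on the right (1.06 for 43 longer ones), and Ndufa1 is the highest point at 1.36.

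Genes that work with the chain did not all go with it. The counts for NK cells below stand beside 16.8% of all genes higher and 24.7% lower, with a median ratio of 0.970. Of the 48 assembly factors listed, 23 were tested in NK cells: 5 were higher and 9 lower, and their median ratio was 0.895. The complex IV assembly factors Coa5 (0.511) and Surf1 (0.630) were lowest there, and Cox20 (1.50) and Cox16 (1.60) highest. Cox16 rests on 31 UMIs in S303/7A and 22 in WT cells, with an interval of 0.898 to 2.9. Of the electron carriers and citric acid cycle enzymes, 8 of 21 tested were higher and 1 lower in NK cells, with a median of 1.09. Cytochrome c, Cycs, was 2.67 in S303/7A and 1.68 in WT cells, a ratio of 1.59 (1.34 to 1.89). Coq9 was at 1.60, Suclg1 at 0.881 and Gpd2 at 0.733, each with an interval that includes 1. In monocytes 15 of 23 of these carriers and enzymes were higher and 2 lower, with a median of 1.29. Of all genes there, 32.3% were higher and 22.5% lower, with a median of 1.04. In tumor cells 0 of 26 carriers and enzymes were higher and 3 lower, with a median of 0.936. Of all genes there, 17.0% were higher and 19.1% lower, with a median of 0.986. Of the regulators of mitochondrial genes, 6 were tested in NK cells, where 1 was higher and 3 lower; Tfam was 1.30 and Yy1 1.02, Esrra 0.721 and Nrf1 0.650, each with an interval that includes 1. Of the genes next to the rule, such as carriers and small ATP synthase proteins, 4 of 10 tested were higher and 0 lower in NK cells, with a median of 1.14: 2010107E04Rik was at 1.41 and Usmg5 at 1.32, Slc25a4 at 0.974 and 1810058I24Rik at 0.938. Of the mitochondrially encoded genes, 11 were tested in NK cells, with 1 higher, 1 lower and a median of 1.02. The level of mt-Nd3 was 0.970 in S303/7A and 0.525 in WT cells, a ratio of 1.85 (1.37 to 2.51). The ratio was 1.15 for mt-Nd1, 0.935 for mt-Co1 and 0.600 (0.325 to 1.07) for mt-Atp8.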

How the data were processed

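Single-cell 3′ libraries (10x Genomics, chemistry v2) of both genotypes were used. The values deposited by the authors are the natural log of (UMIs scaled to 100000 per cell, plus 1), with total counts, a mitochondrial percent, a cluster and a class for each cell. Per the submitters' processing notes, Cell Ranger, Seurat 3.0, mm10 and GRCm38 were used; how cells were filtered and clustered, and whether doublets were removed, is not given in the sources used here. No doublets were removed in this work. UMI counts were recovered by reversing that formula, and 99.9% of the values above 0 came within 0.1 UMI of an integer. UMIs were summed per library and class with Python 3.11.15, numpy 2.4.6, scipy 1.17.1 and pandas 2.3.3. Ratios of UMI shares have exact conditional (Clopper-Pearson) 95% intervals, levels exact Poisson intervals and shares of cells exact binomial intervals, all for counting error only. The ratio calculation was tested on simulated data. The 3 highest members per complex, the 3 highest and lowest ratios per class, tissue forms, Sdh genes and the 2 highest and lowest of each other list in NK cells are named, and other members were picked from the heatmap after their values were seen. The values of 1 member are not reported singly here, though it counts in the sums. The members and lists were chosen with earlier results of these data known. Transcript lengths and shared words came from GENCODE M21 (GRCm38), promoters from RefSeq (GRCm38.p6).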

Additional observations from a re-analysis of the deposited data

Results flagged for a closer look

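Of the members named here, 3 had ratios past 1.2-fold in opposite directions in a pair of classes, with counting intervals on both sides of 1. The difference between classes was not tested. Cox6a2 was 1.71 in macrophages (165 UMIs in S303/7A and 39 in WT cells) and 0.377 in tumor cells (33 and 199). Ndufs7 was 1.27 in monocytes and 0.740 in regulatory T cells. Sdhb was 1.30 in stromal cells and 0.768 in CD8 T cells.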

How the results depend on the processing

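No paired analysis was possible because each genotype has 1 library. The summed level kept its direction in 45 of 47 alternatives, with ratios from 0.946 to 1.19; the exceptions, CD8 T cells at 0.980 and regulatory T cells at 0.946, leave out cells holding C1q UMIs, an alternative chosen after seeing the data. With mitochondrially encoded and ribosomal protein genes out of the denominator the ratio was 1.16 in NK, 1.06 in CD8 T and 1.17 in regulatory T cells. It was 1.07 in macrophage, 1.19 in monocyte, 1.11 in dendritic, 1.13 in stromal and 1.05 in tumor cells. With that denominator 0 stromal members were lower, beside 30.8% of all genes. With the median of all genes set to 1 the ratio was 1.13 in NK, 1.03 in CD8 T and 1.15 in regulatory T cells. It was 1.01 in macrophage, 1.08 in monocyte, 1.14 in stromal and 1.05 in tumor cells. In that setting 0 stromal members were lower, beside 29.9% of all genes. With cells thinned to 1000 UMIs it was 1.08 in NK, 1.01 in CD8 T, 1.06 in regulatory T, 1.04 in macrophage and 1.03 in tumor cells. In thinned cells 14 of 51 stromal and 17 of 59 regulatory T cell members were higher, beside 30.4% and 20.0% of all genes. Lower were 4 NK, 9 regulatory T, 1 macrophage and 1 monocyte member, beside 26.0%, 27.4%, 20.4% and 30.9% of all genes. Also lower were 9 dendritic, 6 stromal and 4 tumor members, beside 24.9%, 16.9% and 28.3%. With each cell weighted alike the ratio was 1.04 in macrophage and 1.13 in stromal cells. In that setting 8 macrophage members were higher, beside 9.73% of all genes. There 1 stromal and 0 tumor members were lower, beside 30.9% and 6.91% of all genes. With clusters weighted alike it was 1.04 in CD8 T and macrophage cells and 1.05 in tumor cells; NK, regulatory T, monocyte and stromal cells have 1 cluster and no such value. Without the filter on low values 2 NK, 5 regulatory T, 1 macrophage, 1 monocyte and 5 stromal members were lower. Of all genes 30.6%, 39.0%, 22.1%, 24.7% and 49.3% were then lower in these classes. Without the 10% shallowest cells 1 NK, 5 regulatory T and 1 stromal member was lower, beside 25.1%, 31.2% and 34.7% of all genes. Without cells holding C1q UMIs 9 of 62 regulatory T cell members were higher, beside 17.6% of all genes. Lower were 7 of 69 NK, 19 of 73 CD8 T and 16 of 62 regulatory T cell members, beside 34.8%, 37.2% and 33.9%. Atp5s in macrophages, 1.73, was 0.801 with cells thinned. The causes were not tested. Depth limits the low members, and single-cluster levels were recomputed for Cox6a2 in C19 and Cox4i2 in C03 only.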
